A study of Homo sapiens with 4 samples.

Results

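Metallothioneins and the zinc response were examined in 8 genes of 20804 in the table of an RNA sequencing study of MDA-MB-231 cells, an established human line of triple-negative breast cancer. The 8 genes were taken by symbol: the metallothionein genes MT2A, MT1E, MT1X, MT1F, MT1G and MT1M, the transcription factor gene MTF1 and the zinc exporter gene SLC30A1. All 8 were in the table. The study sequenced 4 libraries of this line: 2 were labelled wild type (WT) and 2 carried the genotype label miR-3662 KO (KO), with no treatment or time named for either group. The labels do not say how the microRNA was disrupted, or whether a group is 1 clone or several cultures. The column names number the WT libraries plainly, while those of the KO libraries take another form that is not explained. CRISPR interference and activation appear in the title of the series and sorting by microRNA activity in its design text, so what KO stands for is uncertain. The p-values therefore measure only the spread between these libraries, which may be technical.

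Metallothioneins are short cysteine-rich proteins that bind zinc, copper and cadmium. MTF1 is the zinc sensor of the cell: when free zinc rises it enters the nucleus, binds metal response elements in promoters and activates metallothionein genes and SLC30A1, whose product carries zinc out across the plasma membrane. Metallothionein genes also respond to glucocorticoids and to oxidative stress, and in breast cancer MT2A is usually the most abundant of them.

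The metallothionein genes lie in 1 cluster on chromosome 16 (GRCh38, GENCODE 29). MT2A spans 56608199 to 56609497, MT1E 56625475 to 56627112, MT1M 56632233 to 56633986, MT1F 56657694 to 56660698 and MT1X 56682424 to 56684196, all on the plus strand, and MT1G spans 56666731 to 56668065 on the minus strand. MTF1 (37809567 to 37859620) and SLC30A1 (211571568 to 211578742) are both on the minus strand of chromosome 1. Promoter windows from RefSeq (GRCh38.p14) were found for 4 of the 8 members, MT2A, MT1X, SLC30A1 and MTF1. The RefSeq starts differ from the ends of the GENCODE spans above. The MT2A window therefore lies inside the span printed for the gene, and the MT1X window reaches into its span. The SLC30A1 window lies wholly upstream of its span, and the stretch between them was not searched. The 250 bases before the RefSeq start are shown for the first 3 because they are the promoters of genes that MTF1 is known to control. Capitals mark matches to the core of the metal response element, searched as TGCACNC and TGCGCNC on both strands, so that a match on the other strand reads as its reverse complement.
MT2A, chr16:56608334-56608583, plus strand: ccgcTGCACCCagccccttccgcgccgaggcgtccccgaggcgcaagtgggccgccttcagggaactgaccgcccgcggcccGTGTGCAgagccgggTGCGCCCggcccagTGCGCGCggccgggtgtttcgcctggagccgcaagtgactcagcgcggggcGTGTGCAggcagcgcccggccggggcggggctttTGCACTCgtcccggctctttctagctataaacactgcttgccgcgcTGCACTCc
MT1X, chr16:56682220-56682469, plus strand: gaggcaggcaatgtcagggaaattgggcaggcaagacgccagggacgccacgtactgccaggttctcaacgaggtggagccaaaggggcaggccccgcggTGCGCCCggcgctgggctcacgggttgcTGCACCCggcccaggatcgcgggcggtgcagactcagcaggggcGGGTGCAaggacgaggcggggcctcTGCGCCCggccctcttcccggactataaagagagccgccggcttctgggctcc
SLC30A1, chr1:211579162-211579411, minus strand: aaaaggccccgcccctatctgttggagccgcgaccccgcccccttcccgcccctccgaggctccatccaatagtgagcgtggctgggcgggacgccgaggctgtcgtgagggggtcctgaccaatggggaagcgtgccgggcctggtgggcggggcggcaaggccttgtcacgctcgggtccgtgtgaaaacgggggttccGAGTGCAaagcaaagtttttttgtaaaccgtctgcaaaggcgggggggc

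The MT2A window held 7 matches, 5 on the strand of the gene and 2 on the other, with first bases at -246 to -8 relative to the start. MT1X held 4, SLC30A1 held 1, and the MTF1 window held 0. Of 35116 RefSeq windows of this length 24.8% held at least 1 match, 0.37% held at least 4 and 0.0313% held at least 7. The motif is rich in G and C, and so were these windows, at 73.2% G or C for MT2A, 70.0% for MT1X and 66.4% for SLC30A1 against a median of 58.0%. MT2A and MT1X thus stood among the windows with the most matches, while the single match of SLC30A1 was as many as 24.8% of windows reach or pass.

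The coding sequences of the 3 metallothionein genes with high values are shown because short reads must tell them apart. Each has 186 bases with the stop codon (GENCODE 29 transcripts matched to the accessions in the table), and capitals mark the 22 positions at which the 3 are not all alike.
MT2A: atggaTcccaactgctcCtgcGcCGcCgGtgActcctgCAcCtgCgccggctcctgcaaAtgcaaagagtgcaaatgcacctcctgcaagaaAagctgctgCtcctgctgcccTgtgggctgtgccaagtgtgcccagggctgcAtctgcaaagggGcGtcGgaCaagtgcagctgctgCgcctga
MT1E: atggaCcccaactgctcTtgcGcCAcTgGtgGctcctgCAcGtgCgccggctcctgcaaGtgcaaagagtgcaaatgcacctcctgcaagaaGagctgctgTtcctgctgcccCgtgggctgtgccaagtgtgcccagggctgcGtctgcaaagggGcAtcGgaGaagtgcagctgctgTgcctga
MT1X: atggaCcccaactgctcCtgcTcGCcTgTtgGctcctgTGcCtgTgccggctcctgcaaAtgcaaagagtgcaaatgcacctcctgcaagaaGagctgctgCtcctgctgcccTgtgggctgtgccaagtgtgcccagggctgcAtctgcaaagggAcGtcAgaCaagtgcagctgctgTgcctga
MT2A was 92.5% identical to MT1E and to MT1X in this part, and MT1E was 90.9% identical to MT1X. Over whole transcripts, 2.2% of the stretches of 50 bases in MT2A, 5.3% in MT1E and 64 of 401 in MT1X also occurred in a transcript of another of the 20 metallothionein genes annotated, and 0 of the stretches of 100 bases did. The values of the single genes are to that extent uncertain, since neither the read length nor the way shared reads were split is stated.

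The microRNA itself is printed because it names the groups. Its mature form (RefSeq, GRCh38.p14, chromosome 6, 134979355 to 134979378, minus strand) is given with the seed, bases 2 to 8, in capitals.
hsa-miR-3662: gAAAAUGAugaguagugacugaug
A match of 7 bases to this seed reads TCATTTT in a transcript (sought on the sense strand). None of the 6 metallothionein members held it in the longest annotated 3′ UTR, which was 144 to 393 bases long. MTF1 held 1 match in 5569 bases and SLC30A1 held 2 in 3820 bases. The first of each is shown with its flanks.
MTF1: ttaattgcTCATTTTgtataaac
SLC30A1: tttgtttgTCATTTTtaaaattg
Of tested genes with a 3′ UTR of 0.8 to 1.2 times the length of that of MTF1, 75.8% held at least 1 match, as did 60.9% of those of the length of SLC30A1 and 4.2% of those of the length of MT2A. The presence or absence of a match in the members was therefore the common case for their length. Libraries of this kind do not capture mature microRNAs, so the level of miR-3662 was not measured and the genotype label has no check here.

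FPKM values (fragments scaled by transcript length and by the fragments mapped) summed to between 504102 and 544650 per library. Read depth is not stated. In genes with 1 short transcript, FPKM times length came in steps: 65.3% to 67.2% of low values lay within 0.2 of a step from a whole multiple, where an even spread gives 40%, and the step corresponds to 24300000 to 25000000 fragments per library. The step was the one that best fitted these values within a range of steps set in advance, which also bounds the number of fragments. Lengths came from GENCODE and not from the authors, so this is an estimate. On that scale 1 fragment in a transcript of 400 bases is worth 0.1 to 0.103 FPKM, and MT1X, the lowest of the 3 abundant metallothioneins, stood at about 404 fragments in the first WT library. The cells carried VIM at 1120 to 1321 FPKM and CD44 at 104 to 114 FPKM, ESR1 at 0.01 or less and ERBB2 at 8.55 to 11.4 FPKM. Of 3 leukocyte markers PTPRC and CD3E were listed at 0 in every library and CD14 at 0.07 to 0.25 FPKM. Of 3 fibroblast markers in the table COL1A2 was listed at 0 and PDGFRB at 0.02 to 0.09 FPKM. Of the endothelial markers PECAM1 was at 0.02 and 0.03 FPKM in WT and at 0.17 and 0.29 FPKM in KO, and CDH5 at 0.05 and 0.06 FPKM in WT and at 0.01 FPKM in both KO libraries, all below the filter. The epithelial gene EPCAM (1.08 and 1.15 FPKM in WT, 0.34 and 0.05 FPKM in KO) and the collagen gene COL1A1 (1.11 and 1.45 FPKM in WT, 0.36 and 0.27 FPKM in KO) were low in both groups and lower in KO. EPCAM and COL1A1 reached the 1 FPKM needed for testing only in WT. Their adjusted p values (0.0103 and 0.0091 in limma) therefore depend on that filter and are not drawn on. The epithelial marker CDH1 was at 0.03 FPKM or less. The part of these markers in the results was not tested. In bulk RNA, fewer cells of a type and less RNA per cell cannot be told apart.

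Metallothionein expression was higher in KO. MT2A, MT1E and MT1X rose, to between 2.19 and 2.86 times the WT mean, and each was higher in both KO libraries than in both WT libraries. The test was limma on log2(FPKM + 1), restricted to the 11786 genes that reached 1 FPKM in 2 or more libraries, with Benjamini-Hochberg adjustment over all of them. Of the 8 members 5 were tested, of which 3 rose and none fell at an adjusted p under 0.05, where 16.2% of all tested genes rose, 10.8% fell and 27.0% changed in either direction. Of all tested genes 1906 rose and 1278 fell, and after scaling by the median of ratios 1557 rose and 1613 fell, with the same 3 members called. The median log2 fold change was 1.18 over the 5 tested members and 0.074 over all tested genes. MTF1 and SLC30A1 were tested and did not pass, and MT1F, MT1G and MT1M were below the filter.

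MT2A, the main metallothionein of most human tissues, measured 467 and 792 FPKM in WT and 1363 and 1398 FPKM in KO. The KO libraries were close together and both above WT, whereas the 2 WT libraries stood apart. Its log2 fold change was 1.18 ± 0.21 (SE; adjusted p 0.0086, limma). By FPKM it was the gene of rank 149 and 99 in the WT libraries and of rank 55 and 50 in the KO libraries. The lower KO value was 1.72 times the higher WT value. The gap between the WT libraries was 0.76 on the log2 scale, and 0.433% of the 3001 tested genes averaging 30 FPKM or more had a larger one (median 0.12).

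MT1E, an isoform of the MT1 group, was at 84.0 and 124 FPKM in WT and at 247 and 348 FPKM in KO. The groups did not overlap, and the lower KO value was 1.99 times the higher WT value. Its log2 fold change of 1.51 ± 0.21 (SE) was the largest of the members tested (adjusted p 0.0040, limma). MT1X, which lies at the far end of the cluster from MT2A, was at 35.9 and 50.9 FPKM in WT and at 92.1 and 133 FPKM in KO. Its groups did not overlap either, and its log2 fold change was 1.35 ± 0.21 (SE), with an adjusted p of 0.0056. For MT1E and MT1X the second library was the higher one in both groups, with gaps of 0.49 to 0.56 on the log2 scale that 1.53% to 4.17% of genes of at least 30 FPKM exceeded. In all tested genes both KO values lay above both WT values in 39.3%, and both lay below in 28.7%, so separation of the groups alone was common.

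**Figure D1:**
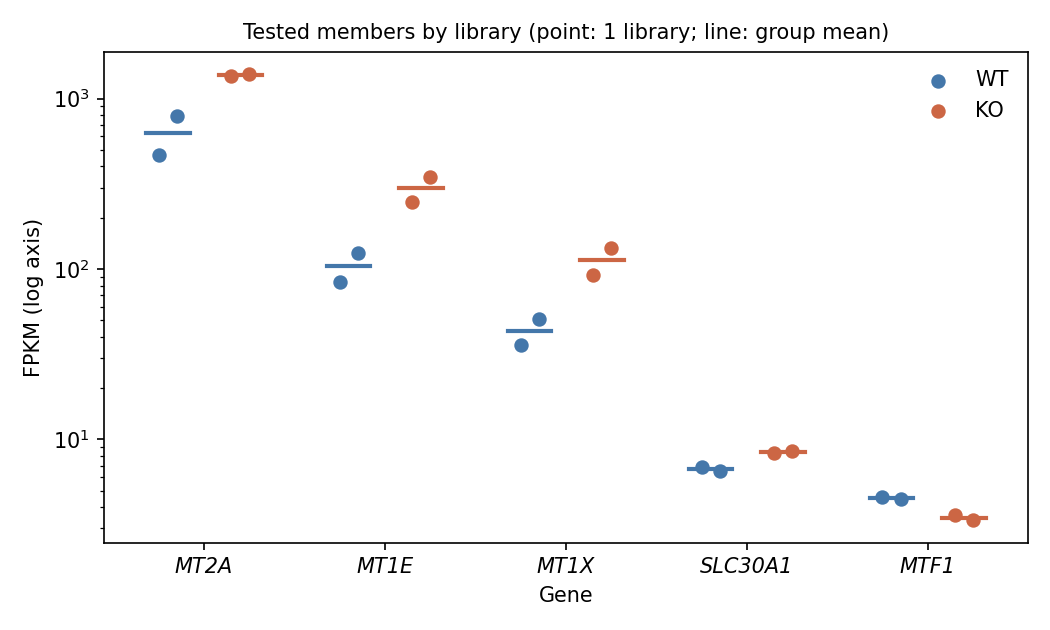
FPKM of the 5 tested members (log axis) in each of the 2 WT and 2 KO libraries, with points for libraries and a line at the group mean. MT2A, MT1E and MT1X lie higher in both KO libraries than in both WT libraries, while SLC30A1 and MTF1 lie near 6.49 to 8.56 and 3.35 to 4.56 FPKM.

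Summed over the 6 metallothionein members, expression was 587 and 967 FPKM in WT and 1703 and 1880 FPKM in KO, which is 777 ± 269 against 1791 ± 125 FPKM (mean ± SD, n = 2 per group). The KO mean was 2.31 times the WT mean, and the sum held 0.151% ± 0.0491 of all FPKM in WT and 0.334% ± 0.0164 in KO. MT2A made up 79.6% and 81.9% of the sum in WT and 80.1% and 74.4% in KO, so the isoform order was the same in every library. MT1E made up 14.3% and 12.8% in WT and 14.5% and 18.5% in KO, and MT1X 6.13% and 5.26% in WT and 5.41% and 7.09% in KO. The shares of MT2A and MT1X overlapped between the groups, whereas both KO values of the MT1E share lay above both WT values, by as little as 14.5% against 14.3%. MT1E was 2.34 and 2.44 times MT1X in WT and 2.68 and 2.61 times in KO, a ratio whose groups did not overlap. These sums and shares carry no test. The WT mean was 791 FPKM after scaling by the median of ratios and the KO mean 1737 FPKM.

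**Figure D2:**
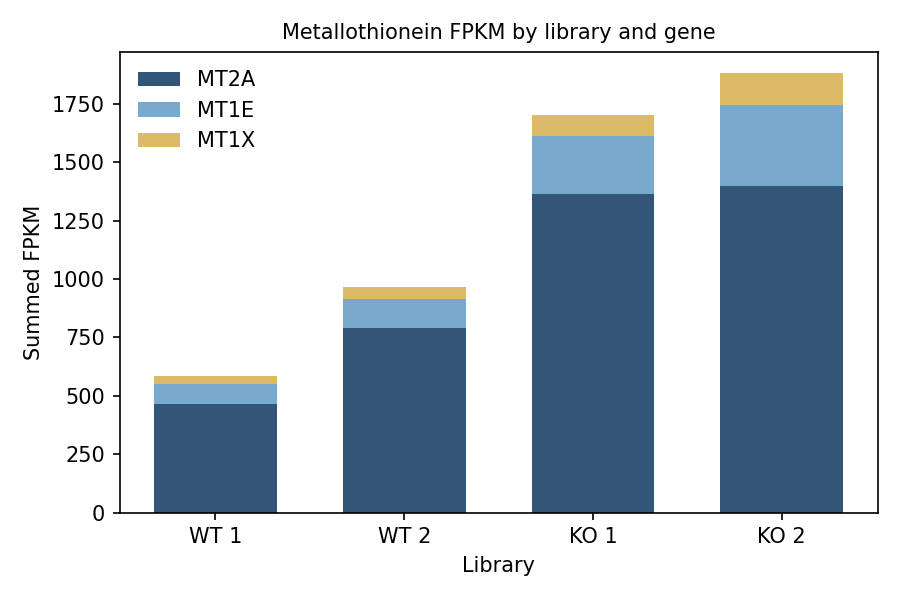
Stacked FPKM of MT2A, MT1E and MT1X in each library, from 0. The bars reach 587 and 967 FPKM in WT and 1703 and 1879 FPKM in KO, and MT2A is the largest part of each.

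The other 3 metallothionein members were at the limit of detection. MT1F was listed at 0 and 0.09 FPKM in WT and at 0 and 0.10 FPKM in KO. MT1G was listed at 0 and 0.11 FPKM in WT and at 0 in both KO libraries. MT1M was listed at 0 in both WT libraries and at 0.10 FPKM in both KO libraries. On the estimated scale these values correspond to about 1 fragment for MT1F and MT1G and to about 2 for MT1M, so no fold change was taken and a difference was not detectable at this depth. Of the 11 other metallothionein genes on a list for comparison, 3 were in the table and none passed the filter. Without the filter, where MT2A, MT1E and MT1X lost their calls, MT1JP was called higher (log2 fold change 0.43, adjusted p 0.0437 in limma) and MT1B was not (0.55, adjusted p 0.0595). Both genes entered that run only through their values above 0 in KO. Their adjusted p values therefore depend on that and are not drawn on. MT1B was listed at 0 in both WT libraries and at 0.35 and 0.59 FPKM in KO, the pseudogene transcript MT1JP at 0 in WT and at 0.34 and 0.35 FPKM in KO, and MT1L at 0 throughout. MT1B and MT1JP correspond to between 3 and 6 fragments per KO library. In MT1JP 23.7% of stretches of 50 bases occurred in another metallothionein transcript, and in MT1B 0.0%.

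Neither the exporter nor the sensor passed the test. SLC30A1, the plasma membrane exporter, was at 6.92 and 6.49 FPKM in WT and at 8.26 and 8.56 FPKM in KO. Both KO values were above both WT values, but the log2 fold change of 0.29 ± 0.14 (SE) did not pass (adjusted p 0.163 in limma). MTF1 was at 4.56 and 4.49 FPKM in WT and at 3.59 and 3.35 FPKM in KO. Both KO values were below both WT values, and the log2 fold change of -0.31 ± 0.14 (SE) did not pass either (adjusted p 0.149). SLC30A1 and MTF1 thus lay apart from the metallothioneins in level and in size of difference, and their failure to pass does not show that they were equal in the groups. Within each library the order of level per length was MT2A, MT1E, MT1X, SLC30A1 and MTF1, and neighbours in that order did not overlap within a group.

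The calls on MT2A, MT1E and MT1X held in 9 of 10 alternatives each. Without the filter on low values their log2 fold changes were the same and the adjusted p was 0.0956, 0.0715 and 0.0653. When single libraries were left out, the log2 fold change of MT2A ranged from 0.80 (without the first WT library) to 1.56 (without the second), that of MT1E from 1.23 to 1.79 and that of MT1X from 1.09 to 1.62, all at an adjusted p of 0.0460 or less in limma.

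**Figure D3:**
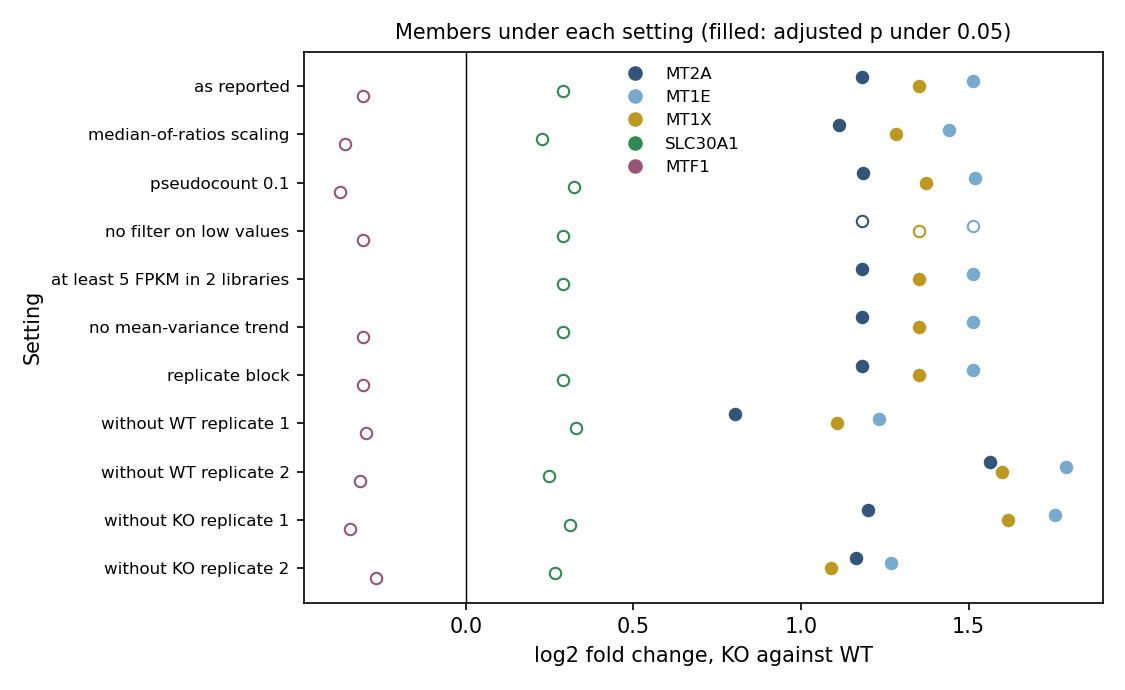
log2 fold change of the 5 tested members, KO against WT, under the reported fit and 10 alternatives, with filled points where the adjusted p was under 0.05. MT2A, MT1E and MT1X lie between 0.80 and 1.79 and are open only without the filter on low values; SLC30A1 and MTF1 are open throughout.

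Among zinc transport genes outside the members, 4 of 16 tested rose and 1 fell, where 16.2% of all tested genes rose and 10.8% fell. Whether the list differs from those shares was not tested. Of 10 exporter genes on the list (the SLC30 family moves zinc out of the cytosol), 5 were tested, of which 2 rose and none fell, with a median log2 fold change of 0.26. SLC30A9, a zinc transporter of mitochondria, rose from 13.3 ± 2.52 to 27.9 ± 4.19 FPKM (SD of 2 libraries per group, here and below), and its difference on the log2 scale was 1.02 (adjusted p 0.0068, limma). SLC30A4, which loads zinc into vesicles, rose from 1.74 ± 0.170 to 2.87 ± 0.0424 FPKM (0.50, adjusted p 0.0388). Of 14 importer genes (the SLC39 family moves zinc into the cytosol), 11 were tested, of which 2 rose and 1 fell, with a median of 0.12. SLC39A4, the importer mutated in the zinc deficiency disease acrodermatitis enteropathica, rose from 48.5 ± 1.09 to 78.8 ± 11.2 FPKM (0.68, adjusted p 0.0105). SLC39A11 rose from 5.59 ± 0.247 to 8.71 ± 0.495 FPKM (0.56, adjusted p 0.0264). SLC39A14, which carries zinc, manganese and iron, fell from 38.5 ± 3.46 to 28.7 ± 1.77 FPKM (-0.41, adjusted p 0.04997). The calls on SLC30A4, SLC39A11 and SLC39A14 were each lost when any single library was left out, and that on SLC30A4 also after scaling (adjusted p 0.0548). That on SLC39A4 was lost without the first WT library, and SLC30A9 passed without each library in turn.

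Metallothioneins also bind copper. Of 14 genes of copper handling, all tested, 2 rose and 1 fell, no larger a share than the 27.0% called over all tested genes, with a median of 0.18 against 0.074. CCS, the copper chaperone of superoxide dismutase, rose from 16.7 ± 2.38 to 25.8 ± 0.721 FPKM (0.61, adjusted p 0.0199 in limma), and COX17, the copper chaperone of cytochrome c oxidase, rose from 72.8 ± 4.94 to 108 ± 12.1 FPKM (0.57, adjusted p 0.0161). SCO1, which also serves cytochrome c oxidase, fell from 55.1 ± 2.71 to 40.9 ± 4.67 FPKM (-0.43, adjusted p 0.0447). The call on SCO1 was lost when any single library was left out, that on CCS without the first WT, the first KO or the second KO library, and that on COX17 without the first WT, the second WT or the second KO library.

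Among genes of heavy metal and oxidative stress, 2 of 11 tested rose and none fell, near the 16.2% of all tested genes that rose, with a median of 0.012. NQO1, a quinone reductase controlled by NRF2, rose from 69.7 ± 13.6 to 119 ± 8.20 FPKM (0.78, adjusted p 0.0104 in limma). HMOX1, the haem oxygenase gene that cadmium and arsenite induce, rose from 9.63 ± 1.85 to 14.6 ± 1.05 FPKM (0.56, adjusted p 0.0404), and after scaling it no longer passed (adjusted p 0.0616). Without the first WT library neither gene passed, and HMOX1 did not pass without either KO library.

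Glucocorticoid-responsive genes, listed because metallothionein genes answer to the same hormone, had 4 of 9 tested members higher and 1 lower, where 16.2% and 10.8% of all tested genes were, with a median of 0.26. Without the filter on low values only ERRFI1 was still called, as higher. After scaling 3 were higher, and without either KO library 2 were. One of the 4, TSC22D3, a leucine zipper gene named here because it bears on that count, was at 2.16 and 3.96 FPKM in WT and at 6.65 and 4.94 FPKM in KO (0.77, adjusted p 0.0482 in limma), and its call was lost in 6 of 9 alternatives, among them scaling (adjusted p 0.0623). ERRFI1, a feedback inhibitor of the EGF receptor, rose from 69.7 ± 8.77 to 139 ± 3.22 FPKM (0.99, adjusted p 0.0027 in limma). CEBPD, a transcription factor gene of the acute phase, rose from 2.41 ± 0.474 to 8.85 ± 3.05 FPKM (1.50, adjusted p 0.0050), and NR3C1, the gene of the glucocorticoid receptor, rose from 10.8 ± 0.983 to 17.7 ± 0.325 FPKM (0.66, adjusted p 0.0131). The clock gene PER1 fell from 4.84 ± 0.467 to 2.62 ± 0.389 FPKM (-0.69, adjusted p 0.0178). The remaining tested genes of the list were not called. Of these, FKBP5 (-0.32, adjusted p 0.105 in limma) and SGK1 (-0.24, adjusted p 0.233) had both KO values below both WT values. Over all tested genes 28.7% did so. DUSP1 (0.26) and KLF9 (0.11) overlapped between the groups. The call on NR3C1 was lost without the second WT library or either KO library and that on PER1 without the second WT or the second KO library. The part that any of these genes has in the metallothionein difference was not tested.

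**Figure D4:**
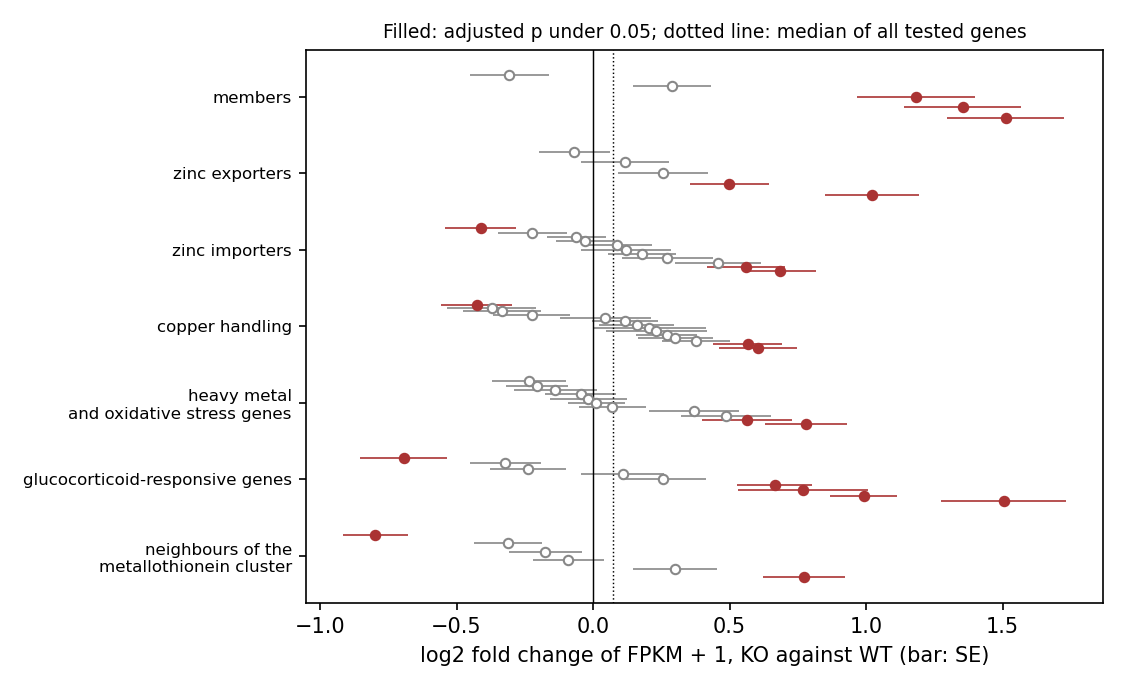
log2 fold change of FPKM + 1, KO against WT, with SE bars, for the tested members and the tested genes of 6 lists. Filled points have an adjusted p under 0.05 in limma, and the dotted line is the median of all tested genes (0.074). The 3 metallothioneins lie at 1.18 to 1.51, and of the listed genes CEBPD reaches 1.50.

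Genes beside the metallothionein cluster gave calls in both directions. Of 9 neighbours 6 were tested, of which 1 rose and 1 fell, where 27.0% of all tested genes were called, with a median log2 fold change of -0.13. NUP93, a nuclear pore gene whose start lies 121.9 kb beyond that of MT2A, fell from 53.3 ± 2.94 to 30.3 ± 1.51 FPKM (-0.80, adjusted p 0.0050 in limma). HERPUD1, a gene of protein degradation at the endoplasmic reticulum that starts 323.8 kb beyond MT2A, rose from 19.8 ± 1.96 to 34.7 ± 5.22 FPKM (0.77, adjusted p 0.0108), and this call was lost without the first WT or the second KO library. On the other side BBS2, which starts at -87.9 kb from MT2A, was at 8.51 ± 1.34 and 10.7 ± 0.0141 FPKM (0.30, adjusted p 0.183).

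**Figure D5:**
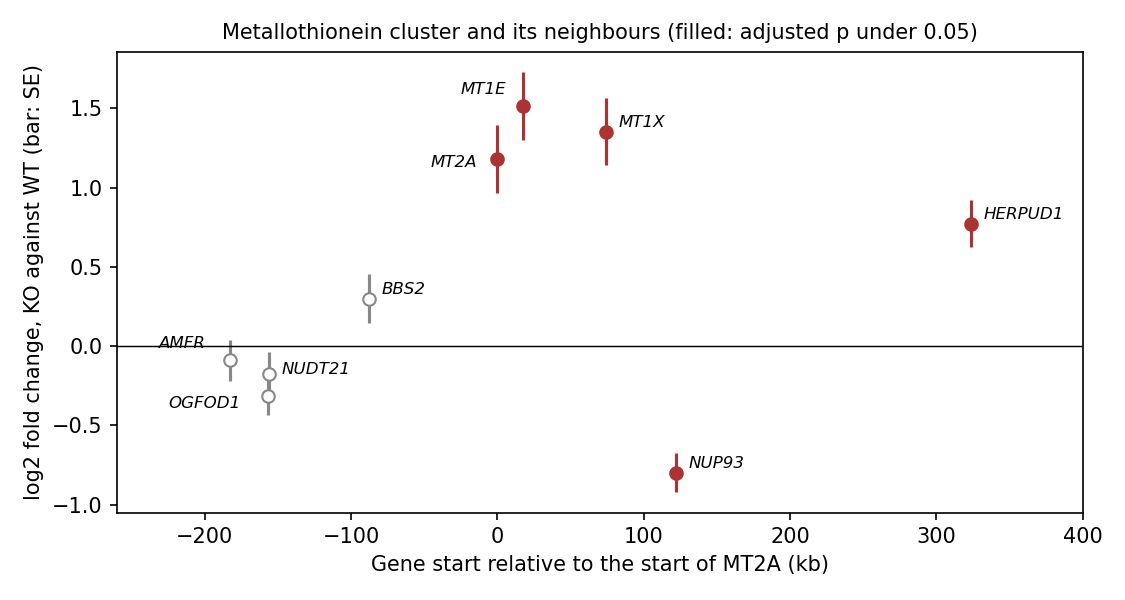
log2 fold change, KO against WT, with SE bars, against the distance of each gene start from that of MT2A in kb, for tested genes of the cluster and its neighbours; filled points have an adjusted p under 0.05. MT2A, MT1E and MT1X lie at 1.18 to 1.51, with NUP93 at -0.80 and BBS2 at 0.30 on either side.

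Profiles over the 4 libraries, centred on their mean, were compared by Euclidean distance among 4305 tested genes that averaged 5 FPKM or more and differed in the same direction. Nearest to MT2A were FUOM, ICA1, SELM, TSC22D1 and SHISA4, at distances of 0.124 to 0.155 on the log2 scale. TSC22D1, for example, was at 15.2 and 30.6 FPKM in WT and at 49.95 and 52.1 FPKM in KO, with the same wide gap in WT and narrow gap in KO. MT1X ranked 119 (0.432) and MT1E ranked 176 (0.482), so many genes outside the cluster were nearer to MT2A than these neighbours within it. Nearest to SLC30A1 were FAM57A, FRG1, LCMT2, TMEM9B and CALM2, at 0.0233 to 0.0380. With 4 libraries many genes share a profile, and these distances are a description.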

How the data were processed

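RNA was measured in 4 libraries, 2 WT and 2 KO, grouped by the sample titles. The authors deposited 1 FPKM value per gene and library, with 2 decimals, per the file headers. The submitters' processing notes name HISAT, StringTie, Cufflinks and GATK with the build hg38, without roles, and per the labels' protocols libraries were made with a TruSeq kit. The sources used here give no annotation, read length or depth. A spreadsheet had turned 11 symbols into dates, which were restored from gene identifiers.

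log2(FPKM + 1) was fitted with limma 3.58.1 (R 4.3.3) with a mean-variance trend, on genes reaching 1 FPKM in 2 or more libraries, without scaling, at a Benjamini-Hochberg adjusted p under 0.05. Tested on simulated data (KO against WT, 11786 genes), the fit recovered 41.8% of genes changed by 0.5 on the log2 scale, 100% of those changed by 1 and 100% of those changed by 2, with 9 false calls. This check of the fit changed 67 genes by 0.5, 67 by 1 and 66 by 2, whereas 27.0% of tested genes were called in the libraries. The changed genes were drawn only from those with a mean log2(FPKM + 1) above 2, so recovery at lower levels was not tested. How the fit performs on genes with gaps between libraries as wide as those of MT2A, MT1E and MT1X was not tested. Python 3.11.15 and pandas 2.3.3 served for the tables.

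Named are all 8 members, up to 3 called genes per list and direction with the smallest p, and the 5 nearest profiles to MT2A and SLC30A1. BBS2, TSC22D3, FKBP5, SGK1, DUSP1, KLF9, HSPA8, SLC31A2, MT1B, MT1JP and MT1L were named after their values were seen. Members and lists were chosen with earlier results of these data known. Lists were described by counts and medians, with no set test.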

Additional observations from a re-analysis of the deposited data

How the results depend on the processing

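Of the 5 tested members, SLC30A1 and MTF1 stayed short of the threshold in every alternative run (10 and 9; MTF1 has no value at a minimum of 5 FPKM). MT2A, MT1E and MT1X kept their direction in all 10, and lost the call only without the filter on low values, at 1.18, 1.35 for MT1X and 1.51 for MT1E. There 525 of all genes were called instead of 3184, and 3 genes of the 7 lists instead of 17, and the cause was not tested. Among those 3 was MT1JP, which was above 0 only in KO. Scaling by the median of ratios left 3170 calls but changed their balance from 1906 higher and 1278 lower to 1557 and 1613. Leaving out 1 library gave 1402 to 1902 calls among all genes, 6 to 11 in the lists, and for the members 0.80 to 1.56 (MT2A), 1.23 to 1.79 (MT1E), 1.09 to 1.62 (MT1X), 0.25 to 0.33 (SLC30A1) and -0.34 to -0.27 (MTF1); the lone library of a group is then assumed to vary like the other group. The 17 called genes of the lists kept their direction in the alternatives run. Under scaling, values near 0 of genes that were not called changed sign, for example HSPA8 from 0.012 to -0.058 and SLC31A2 from 0.045 to -0.016.

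Replicate numbers do not pair the libraries in the labels. With a replicate block 2864 genes were called and the calls on the members did not change. Deviations of same-numbered libraries were weakly negatively correlated across genes (r = -0.18), though MT2A, MT1E and MT1X were each higher in the second library of both groups, and crossed pairing, added after seeing the data, gave 4170 calls. The number of fragments limits MT1F, MT1G and MT1M, and 2 libraries per group limit all tests.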
